A study of Mus musculus with 16 samples.

Results

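Hematopoietic stem cells (HSCs) recovered from mice 4 weeks after transplantation were sorted by surface MAC-1, and the 4 week MAC-1low HSCs were compared with the 4 week MAC-1- HSCs across all genes, to ask which transcripts differ between regenerating HSCs with and without surface MAC-1. The comparison rested on the columns labelled as MAC-1 low or MAC-1 negative after transplantation, which gave 4 MAC-1low and 3 MAC-1- samples of the 16 samples of the series. All samples were labelled wild-type and B6.SJL, and no age was given. For the 4 week groups, recipients irradiated with 900 cGy had received 8000 LSK cells, that is lineage-, cKit+, Sca1+ marrow cells, and MAC-1low, MAC-1- and MAC-1+ (3 samples) HSCs were then taken from their marrow. Steady-state (SS) MAC-1low and MAC-1- HSCs (3 samples each) came from mice labelled untreated, and they are used below only for reference; the treatment text of the labels, which all samples share, describes the transplantation for them too. In every group the HSC gate was LSK, CD48- and CD150+, and the RNA was copied with SMART-Seq v4, which carries no molecular identifiers. Neither pooling of animals nor the pairing of samples from 1 mouse was stated, so the p-values below measure the spread between these samples, which may be technical. Whether recipient-derived HSCs were gated out of these samples was also not stated. The study describes CD45.1 labelling of donor cells for its serial transplantations with the same cell number and irradiation.

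MAC-1 is the integrin of CD11b (*Itgam*) and CD18 (*Itgb2*), a receptor for adhesion and phagocytosis of mature myeloid and NK cells. After transplantation into irradiated mice, donor HSCs have to leave quiescence, expand and refill the blood. HSCs differ in the lineage genes they already transcribe, and a part of them carries transcripts of megakaryocytes and platelets such as *Pf4* and *Vwf*. Oxidative phosphorylation and the growth programme driven by MYC are known to be low in quiescent HSCs and to rise when HSCs are activated.

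The deposited values were read counts per gene, between 16636447 and 28017703 in all per MAC-1low sample and between 17132684 and 28580658 per MAC-1- sample. Levels are given as CPM after TMM scaling (normalised CPM), the reads of a gene relative to the scaled total of its sample, which is not corrected for gene length, so that levels are compared between samples and not between genes. Differences are log2 fold changes of MAC-1low over MAC-1- from edgeR's quasi-likelihood test, and adjusted p are Benjamini-Hochberg values over all 13661 genes tested. The standard error after the ± sign is implied by that test: the absolute log2 fold change divided by the square root of its F statistic. A count of 0 allowed up to 0.112 to 0.188 normalised CPM in these 7 samples, by counting error only. Bulk samples cannot tell fewer cells with a transcript from less of it in each cell.

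In 4 week MAC-1low HSCs 21 genes (0.154%) were higher and 4 (0.0293%) were lower than in 4 week MAC-1- HSCs at an adjusted p below 0.1 and a log2 fold change beyond 1, together 0.183% of the genes tested. The 4 lower genes were *Pf4*, *Plek*, *Rap1b* and *Rabgap1l*, and the first 3 of them are genes of megakaryocytes and platelets. Among the 21 higher genes were the HSC transcription factors *Hlf* and *Mecom*, the myeloid and lymphoid factors *Spi1* and *Ikzf2*, and *Cd74*, *Ltb*, *Gimap6*, *Ifitm1*, *Ccl4* and the glutathione transferases *Mgst1* and *Gstm1*. With the adjusted p alone, 22 genes were higher (0.161%) and 16 lower (0.117%), the added lower genes changing by less than the fold threshold. At an unadjusted p below 0.05 there were 557 higher (4.08%) and 434 lower (3.18%) genes, 7.25% of those tested. The median log2 fold change over all genes tested was 0.05, with 7136 genes above 0 and 6525 at or below 0. Each list's counts below are to be read beside these shares. DESeq2, the tool named in the notes of the submitters, called 372 genes higher (2.69%) and 82 lower (0.594%) with the same thresholds, and limma-voom with sample weights 127 (0.93%) and 84 (0.615%). By DESeq2's adjusted p alone, the rule used for list members below, 2.84% were higher and 1.2% lower. Leaving out 1 sample at a time gave between 6 (without MAC-1- replicate 1) and 13 higher genes (without MAC-1low replicate 1, 2 or 3), and between 2 (without MAC-1low replicate 1 or MAC-1- replicate 1) and 6 lower genes (without MAC-1low replicate 2). It gave 9 higher genes without MAC-1low replicate 4, and 8 without MAC-1- replicate 2 or 3.

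**Figure D1:**
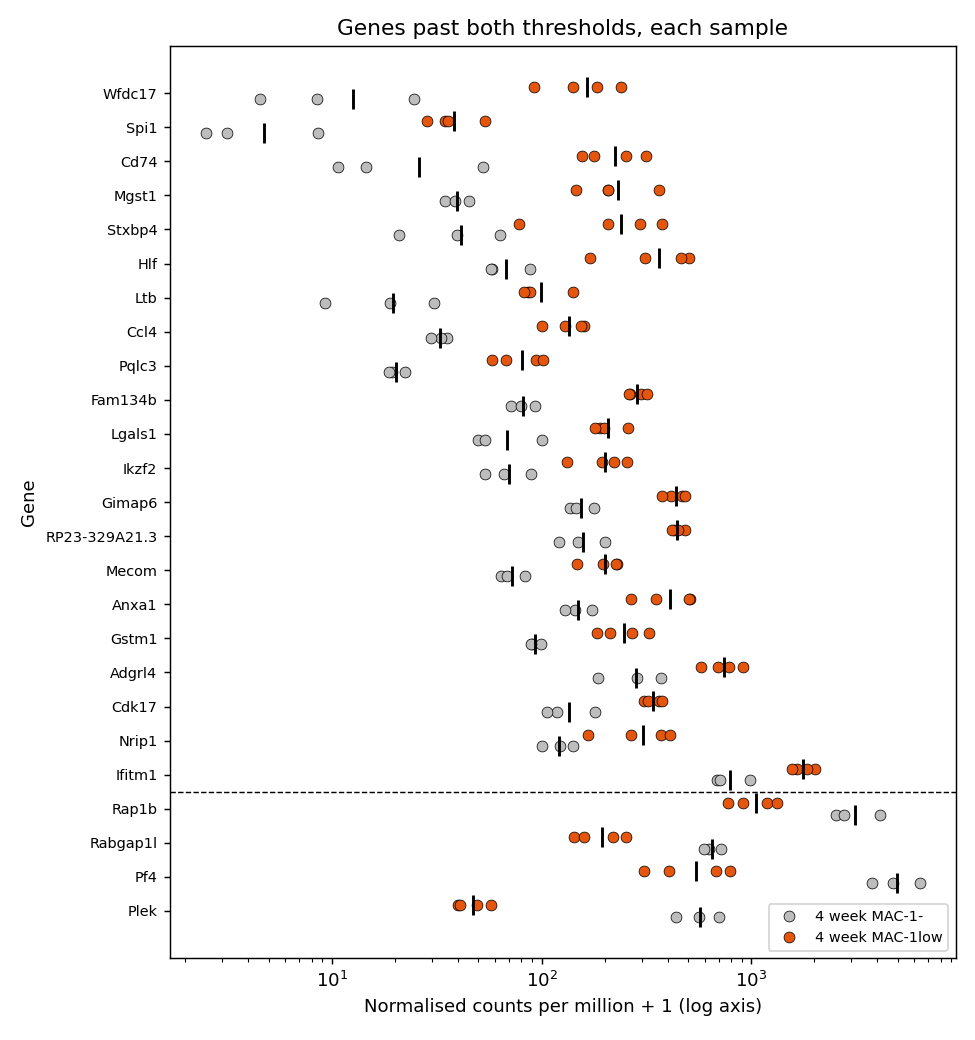
Normalised CPM + 1 (log axis) of the 25 genes past both thresholds in each 4 week MAC-1- (grey, n = 3) and MAC-1low (orange, n = 4) sample, with the mean as a vertical tick; genes below the dashed line were lower in MAC-1low HSCs. In none of the 25 genes do the samples of both groups overlap; these genes were chosen on these values.

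**Figure D2:**
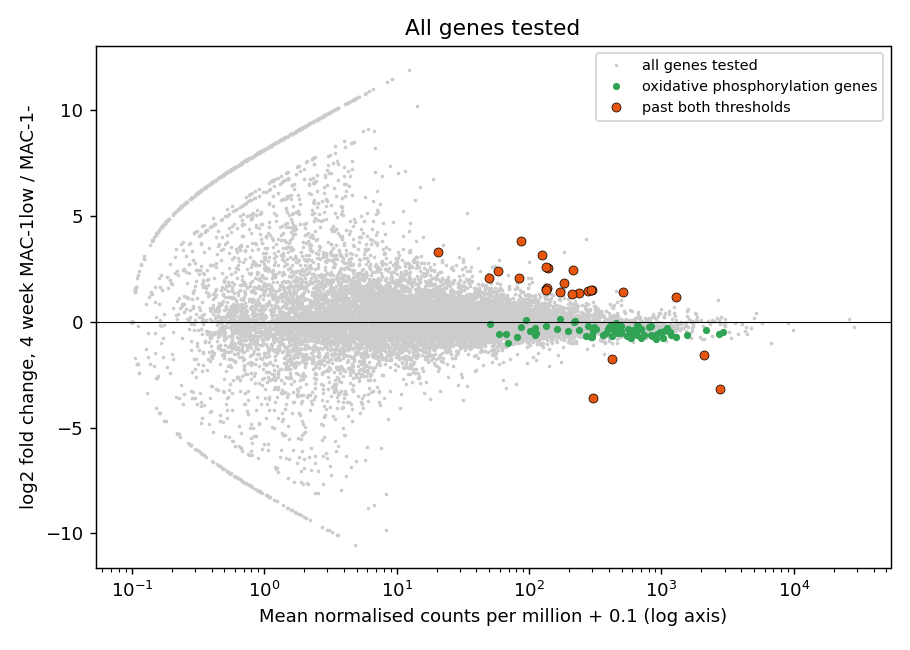
Log2 fold change of 4 week MAC-1low over MAC-1- HSCs for the 13661 genes tested against the mean normalised CPM of both groups + 0.1 (log axis), with the genes past both thresholds in orange and the oxidative phosphorylation genes in green. The called genes lie at middle and high levels, and the green points form a band just below 0.

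The samples of the groups stood without overlap in 714 genes with MAC-1low above (5.23%) and in 755 with MAC-1low below (5.53%). Called genes came from the better counted part of the table. With the genes tested split into 4 classes of about equal size by mean level, 18 of the 22 genes higher by adjusted p were in the highest class and 4 in the next, and all 16 lower genes were in the highest class, where the median log2 fold change was -0.07. The share of counts taken by the top 100 genes was 26.8% to 29.7% in MAC-1- and 25.3% to 28.1% in MAC-1low samples, and the part of these shares in the differences was not tested.

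The sort itself was on MAC-1 protein. The transcripts of its CD11b subunit were scarce, with *Itgam* at 0, 1.78 and 0 normalised CPM in the MAC-1- and 0.368, 4.36, 1.08 and 0.112 in the MAC-1low samples, so that the groups overlapped (log2 fold change 1.3 ± 1.87, adjusted p = 1). Without MAC-1low replicate 2 its log2 fold change was -0.18. *Itgb2* was at 31.4, 18.8 and 30.3 normalised CPM in the MAC-1- and 13.2, 22.6, 8.74 and 3.15 in the MAC-1low samples, also with overlap (log2 fold change -1.17 ± 1.28, adjusted p = 1). The markers of the gate were present, with *Kit* at 133, 215 and 119.6 normalised CPM in the MAC-1- and 275, 283, 218 and 231 in the MAC-1low samples. *Slamf1*, which encodes CD150, was at 68.6, 73.96 and 71.1 normalised CPM in the MAC-1- and 225, 46.7, 87.6 and 26.7 in the MAC-1low samples. *Cd48*, whose protein the gate removed, was at 71.7, 89.9 and 133 normalised CPM in the MAC-1- and 68.4, 93.4, 60.3 and 107 in the MAC-1low samples. Its RNA was thus counted in every sample of both groups. Of the lineage markers, which are summed by cell type further on, *Cd3e* and *Cd79a* had no count in any of the 7 samples and *Ly6g* had 2 counts in 1 MAC-1low sample, while *Nkg7* was at 323, 376 and 642 normalised CPM in the MAC-1- and 130.3, 373, 222 and 337 in the MAC-1low samples and *Cd79b* at 31.3, 33.6 and 6.4 normalised CPM in the MAC-1- and 34.9, 49.1, 51.2 and 32.2 in the MAC-1low samples; these genes were picked after their values were seen. *Klrb1c*, which encodes NK1.1, was at 33.04 normalised CPM in MAC-1low replicate 1 and at 0 or under the floor in the other 6 samples.

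The megakaryocyte and platelet genes *Pf4*, *Plek* and *Rap1b* were lower in MAC-1low HSCs. *Pf4* (chr5:90772435-90773383 in GRCm38, coordinates of GENCODE M21 as for all genes here) encodes platelet factor 4, a chemokine of platelet granules. It was at 6366, 4728 and 3776 normalised CPM in the MAC-1- and 406, 679, 306 and 788 in the MAC-1low samples. Every MAC-1low sample was far below every MAC-1- sample (log2 fold change -3.19 ± 0.35, adjusted p = 0.00216), the smallest p of all genes tested. *Plek* (chr11:16971206-17052381), which encodes pleckstrin, a substrate of protein kinase C in platelets, was at 697, 565 and 436 normalised CPM in the MAC-1- and 38.98, 56.6, 39.6 and 48.2 in the MAC-1low samples (log2 fold change -3.63 ± 0.61, adjusted p = 0.0277). *Rap1b* (chr10:117813871-117846035), a small GTPase that activates integrins in platelets, was at 4091, 2546 and 2758 normalised CPM in the MAC-1- and 1192, 917, 772 and 1322 in the MAC-1low samples (log2 fold change -1.58 ± 0.21, adjusted p = 0.00848). The call of *Pf4* and of *Rap1b* held in 16 of 16 other settings each, with adjusted p of 0.00384 to 0.0165 and 0.0119 to 0.074 when 1 sample was left out. That of *Plek* held in 10 of 16, with adjusted p of 0.0803 to 0.123 when 1 sample was left out, and it was lost without MAC-1low replicate 1, 3 or 4 and without MAC-1- replicate 1. *Rabgap1l* (chr1:160219174-160793211), which encodes a protein acting on Rab GTPases and stands in no list used here, was at 628, 719 and 596 normalised CPM in the MAC-1- and 142, 159, 218 and 252 in the MAC-1low samples (log2 fold change -1.75 ± 0.3, adjusted p = 0.0322). Its adjusted p was 0.0579 to 0.16 when 1 sample was left out, above 0.1 without MAC-1low replicate 1 or 2 and without MAC-1- replicate 1 or 2.

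Of 40 megakaryocyte and platelet genes tested, 3 were lower and 0 higher by adjusted p, against 0.117% lower and 0.161% higher over all genes. Their median log2 fold change was -1.54, with 35 below 0 and 5 above. At an unadjusted p below 0.05, 15 were lower and 1 higher, where 3.18% and 4.08% of all genes were. In 21 of the 40 the MAC-1low samples were all below the MAC-1- samples, where this was so for 5.53% of all genes. *Itga2b*, the platelet integrin chain CD41, was at 45.9, 59.9 and 55.6 normalised CPM in the MAC-1- and 12.01, 5.28, 9.15 and 8.24 in the MAC-1low samples (log2 fold change -2.63 ± 0.61, adjusted p = 0.146), and DESeq2 gave it an adjusted p of 5.32e-07. *Vwf*, von Willebrand factor, was at 83.2, 101 and 116 normalised CPM in the MAC-1- and 23.5, 38.6, 14.4 and 31.2 in the MAC-1low samples (log2 fold change -1.89 ± 0.57, adjusted p = 0.374). *Gp9*, a part of the receptor for von Willebrand factor, was at 53.7, 74.5 and 89.8 normalised CPM in the MAC-1- and 10.6, 33.4, 4.17 and 22 in the MAC-1low samples (log2 fold change -2.05 ± 1.31, adjusted p = 0.87). These 3 genes stood without overlap between the groups and missed the adjusted threshold. *Gata1*, the factor of megakaryocytes and red cells, was at 26.2, 50.8 and 41.7 normalised CPM in the MAC-1- and 3.8, 23.97, 16.2 and 4.72 in the MAC-1low samples (log2 fold change -1.7 ± 1.57, adjusted p = 1). *Gfi1b*, another factor of both lineages, was at 54.9, 108 and 165 normalised CPM in the MAC-1- and 9.68, 86.7, 25.4 and 8.77 in the MAC-1low samples with overlap (log2 fold change -1.75 ± 0.69, adjusted p = 0.609). Both lists of megakaryocytic genes contain *Pf4*, *Itga2b* and others in common.

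The study names 8 megakaryocytic and erythroid genes, chosen on these samples, so that their direction is not independent evidence. All 8 had a log2 fold change below 0, with a median of -1.97, 1 of them was lower by adjusted p (*Pf4*) and 5 at an unadjusted p below 0.05. Its members not given above were *Mfsd2b* and *Klf1*. *Mfsd2b*, a lipid transporter of red cells and platelets, was at 45.1, 55.8 and 79.3 normalised CPM in the MAC-1- and 0.4904, 22.5, 2.01 and 3.93 in the MAC-1low samples (log2 fold change -3.05 ± 1.25, adjusted p = 0.609). *Klf1*, the red cell factor, was at 1.88, 11.5 and 11.7 normalised CPM in the MAC-1- and 0, 4.45, 8.48 and 0 in the MAC-1low samples (log2 fold change -1.37 ± 2.44, adjusted p = 1). Of 28 erythroid genes tested, 0 passed in either direction by edgeR's adjusted p. At an unadjusted p below 0.05, 3 were lower (3.18% of all genes) and 1 higher (4.08%), and DESeq2 called 1 lower and 1 higher. Their median was -0.29. The higher one was *Hbb-bt*, an adult beta globin, at 11.5, 12.1 and 8.51 normalised CPM in the MAC-1- and 42.7, 48.2, 33.2 and 28.5 in the MAC-1low samples (log2 fold change 1.83 ± 0.44, adjusted p = 0.17), whose reads may be shared with the nearly identical beta globin copy.

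The promoter windows of 3 of the called genes are shown because the genes stood at both ends of the comparison, *Pf4* and *Plek* lower, *Hlf* higher. Each line holds the 250 bases before the RefSeq start, 5′ to 3′ on the strand of the gene (GRCm38.p6; chr5:90772185-90772434 on the plus strand for *Pf4*, chr11:17008719-17008968 and chr11:90390918-90391167 on the minus strand for *Plek* and *Hlf*). Capitals mark a match to 1 of 5 short motifs searched on both strands, AGATAA and TGATAA of GATA factors, GGAAGT of ETS factors, CACGTG of MYC and TGTGGT of RUNX factors. Windows that reached into an exon of GENCODE M21 (those of *Rap1b* and *Mecom*) are left out.
Pf4: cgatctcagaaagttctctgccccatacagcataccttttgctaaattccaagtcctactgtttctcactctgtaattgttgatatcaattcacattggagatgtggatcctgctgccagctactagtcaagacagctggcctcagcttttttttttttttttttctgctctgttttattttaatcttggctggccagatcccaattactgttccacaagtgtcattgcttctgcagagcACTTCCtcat
Plek: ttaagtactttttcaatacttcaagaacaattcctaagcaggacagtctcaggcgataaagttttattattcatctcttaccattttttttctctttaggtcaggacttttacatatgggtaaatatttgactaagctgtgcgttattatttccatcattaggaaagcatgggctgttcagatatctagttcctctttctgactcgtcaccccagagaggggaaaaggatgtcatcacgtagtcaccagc
Hlf: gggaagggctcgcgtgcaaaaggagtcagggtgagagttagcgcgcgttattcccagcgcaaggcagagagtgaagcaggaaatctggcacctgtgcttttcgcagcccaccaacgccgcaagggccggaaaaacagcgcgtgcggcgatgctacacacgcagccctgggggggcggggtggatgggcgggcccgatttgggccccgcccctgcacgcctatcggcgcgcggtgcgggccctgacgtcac
The windows differed in that *Pf4* held 1 match, GGAAGT on the reverse strand from 10 to 5 bases before the start, while those of *Plek* and *Hlf* held none of the 5. Of 32851 RefSeq promoter windows of this length, 19.7% held GGAAGT, 9.99% AGATAA, 7.94% TGATAA, 6.02% CACGTG and 14% TGTGGT. Of the 4 called lower genes, all with a RefSeq window, 1 held GGAAGT and none another of these motifs. Of the 21 called higher genes 13 had a window, of which 2 held GGAAGT, 2 TGTGGT, 1 TGATAA and none the other motifs. A match is a string of letters and no measured site.

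Of the factors that define HSCs, *Hlf* and *Mecom* were higher in MAC-1low HSCs. *Hlf* (chr11:90336536-90390895), a leucine zipper factor that keeps HSCs quiescent, was at 56.99, 87.2 and 56.7 normalised CPM in the MAC-1- and 504, 169, 309 and 461 in the MAC-1low samples (log2 fold change 2.43 ± 0.42, adjusted p = 0.0326). *Mecom* (chr3:29951296-30548008), which encodes the zinc finger factor EVI1, was at 63.1, 67.2 and 82.5 normalised CPM in the MAC-1- and 228, 196, 225 and 147 in the MAC-1low samples (log2 fold change 1.49 ± 0.29, adjusted p = 0.0576). In both genes the lowest MAC-1low sample was above the highest MAC-1- sample. When 1 sample was left out, the adjusted p of *Hlf* was 0.0157 to 0.181, above 0.1 without MAC-1low replicate 4 or without any of the MAC-1- samples. For *Mecom* it was 0.0781 to 0.312, and it stayed below 0.1 only without MAC-1low replicate 4. *Stxbp4* (chr11:90476492-90638084), which encodes a syntaxin binding protein and lies 85596 bases beyond *Hlf* on chromosome 11, was at 38.7, 19.98 and 62.1 normalised CPM in the MAC-1- and 295, 206, 77.1 and 374 in the MAC-1low samples (log2 fold change 2.56 ± 0.54, adjusted p = 0.0943). It was the gene of the 38 with an adjusted p below 0.1 that limma-voom did not call (0.137). Leaving out 1 sample gave *Stxbp4* an adjusted p of 0.0393 to 0.405, below 0.1 only without MAC-1low replicate 3.

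Of 28 HSC transcription factors tested, these 2 were higher by adjusted p and 0 lower, and the median log2 fold change was 0.45. At an unadjusted p below 0.05, 6 were higher and 2 lower, where 4.08% and 3.18% of all genes were. *Lyl1*, a helix-loop-helix factor of HSCs, was at 13.6, 11.6 and 4.47 normalised CPM in the MAC-1- and 27.8, 28.1, 40.3 and 26.2 in the MAC-1low samples (log2 fold change 1.63 ± 0.46, adjusted p = 0.33). It stood without overlap and did not pass the adjusted threshold.

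Of 40 surface and identity genes of HSCs, 3 were higher by adjusted p (*Ifitm1*, *Gstm1* and *Ltb*) and 0 lower, where 0.161% and 0.117% of all genes were. The median was 0.36, with 24 log2 fold changes above 0 and 16 at or below 0. At an unadjusted p below 0.05, 9 were higher (4.08% of all genes) and 5 lower (3.18%). Samples stood without overlap in 10 with MAC-1low above (5.23% of all genes) and in 4 with MAC-1low below (5.53%). DESeq2 called 5 higher and 2 lower. The genes described next were all in the higher direction, and the lower members are not described in this paragraph. *Ifitm1* (chr7:140967221-140969825), an interferon-induced membrane protein, was at 689, 983 and 707 normalised CPM in the MAC-1- and 1652, 2005, 1565 and 1838 in the MAC-1low samples (log2 fold change 1.15 ± 0.17, adjusted p = 0.011). Its call held in 15 of 16 other settings. *Gstm1* (chr3:108012255-108017973), a cytosolic glutathione transferase that shares sequence with other genes of its family, was at 88.9, 98.6 and 87.6 normalised CPM in the MAC-1- and 183, 326, 269.5 and 212 in the MAC-1low samples (log2 fold change 1.43 ± 0.26, adjusted p = 0.0493). With 1 sample left out its adjusted p was 0.045 to 0.223, below 0.1 only without MAC-1low replicate 1 or 4. *Ly6a*, which encodes Sca1, one of the markers of the gate, was at 202, 245 and 265 normalised CPM in the MAC-1- and 635, 878, 638 and 497 in the MAC-1low samples. It stood without overlap and at the edge of the threshold (log2 fold change 1.48 ± 0.32, adjusted p = 0.101). *Procr*, which encodes the HSC marker EPCR, was at 5.59, 6.98 and 8.51 normalised CPM in the MAC-1- and 45.5, 46.2, 37.5 and 12.3 in the MAC-1low samples (log2 fold change 2.33 ± 0.6, adjusted p = 0.249). *Cd24a*, a surface glycoprotein of progenitors and the gene with the smallest p among those with an adjusted p above 0.1, was at 303, 312 and 352 normalised CPM in the MAC-1- and 784, 563, 619 and 710.1 in the MAC-1low samples (log2 fold change 1.05 ± 0.22, adjusted p = 0.101).

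Of the 12 HSC signature genes that the study names, again chosen on these samples and no independent evidence, *Hlf* and *Mecom* were higher by adjusted p, 8 were higher at an unadjusted p below 0.05, and the median was 1.04, with 10 above 0 and 2 below. Besides the genes above, *Socs2*, an inhibitor of cytokine signalling, was at 97.8, 79.6 and 76.4 normalised CPM in the MAC-1- and 261, 168, 193 and 214 in the MAC-1low samples (log2 fold change 1.3 ± 0.39, adjusted p = 0.374). *Mllt3*, a chromatin reader of HSCs, was at 216, 129 and 209.7 normalised CPM in the MAC-1- and 411, 207, 276 and 371 in the MAC-1low samples with overlap (log2 fold change 0.77 ± 0.25, adjusted p = 0.478). *Fgd5*, an exchange factor for small GTPases that marks HSCs, was at 0.753, 7.96 and 1.69 normalised CPM in the MAC-1- and 15.1, 23.6, 12.5 and 5.77 in the MAC-1low samples with overlap (log2 fold change 2.03 ± 0.87, adjusted p = 0.625). The log2 fold changes of *Kit*, *Nupr1*, *Uba7* and *Glipr1l1* were 0.69, 0.47, -0.09 and 0.22, all with adjusted p above 0.1. Of 28 cell cycle inhibitors and quiescence genes, 1 (*Hlf*, which is in several lists) was higher by adjusted p (0.161% of all genes). The median was 0.51, and 7 were higher (4.08% of all genes) and 1 lower (3.18%) at an unadjusted p below 0.05. *Tgfbr2*, a TGF-beta receptor, was at 7.97, 19.1 and 13.04 normalised CPM in the MAC-1- and 89.9, 69.99, 45.1 and 80.7 in the MAC-1low samples (log2 fold change 2.41 ± 0.65, adjusted p = 0.282). *Txnip*, the thioredoxin inhibitor, was at 67.4, 121 and 56.9 normalised CPM in the MAC-1- and 169, 192, 163 and 197 in the MAC-1low samples (log2 fold change 1.14 ± 0.32, adjusted p = 0.302). *Ccng2*, cyclin G2, was at 25.04, 69.6 and 25.5 normalised CPM in the MAC-1- and 112, 105, 108 and 161 in the MAC-1low samples (log2 fold change 1.6 ± 0.47, adjusted p = 0.349).

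Of the genes of lymphoid and myeloid cells, *Spi1*, *Ikzf2*, *Ltb* and *Gimap6* were higher in MAC-1low HSCs. *Spi1* (chr2:91082390-91115756), which encodes PU.1, was at 1.51, 2.16 and 7.61 normalised CPM in the MAC-1- and 27.5, 52.6, 33.6 and 34.9 in the MAC-1low samples (log2 fold change 3.31 ± 0.62, adjusted p = 0.0529). *Ikzf2* (chr1:69531214-69687245), which encodes Helios, was at 65.03, 52.8 and 88.03 normalised CPM in the MAC-1- and 222, 193, 132 and 253 in the MAC-1low samples (log2 fold change 1.54 ± 0.31, adjusted p = 0.0728). *Ltb* (chr17:35194439-35196320), lymphotoxin beta, was at 8.29, 17.9 and 29.6 normalised CPM in the MAC-1- and 84.8, 141, 86.95 and 81.8 in the MAC-1low samples (log2 fold change 2.41 ± 0.5, adjusted p = 0.0912). *Gimap6* (chr6:48701582-48708225), a GTPase of lymphocytes, was at 178, 136 and 145 normalised CPM in the MAC-1- and 415, 376, 468 and 482 in the MAC-1low samples (log2 fold change 1.51 ± 0.29, adjusted p = 0.0529). In each of these 4 genes all MAC-1low samples stood above all MAC-1- samples, and DESeq2 and limma-voom called all 4. With 1 sample left out their adjusted p were 0.015 to 0.312 for *Spi1*, 0.0641 to 0.369 for *Ikzf2*, 0.12 to 0.369 for *Ltb* and 0.0881 to 0.312 for *Gimap6*. *Spi1* stayed below 0.1 without MAC-1low replicate 1 or MAC-1- replicate 3, *Ikzf2* without MAC-1low replicate 3, *Gimap6* without MAC-1low replicate 2, and *Ltb* in no case.

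Of 20 lymphoid priming genes tested, 3 were higher by adjusted p (*Gimap6*, *Ikzf2* and *Ltb*) and 0 lower, where 0.161% and 0.117% of all genes were. At an unadjusted p below 0.05, 8 were higher and 1 lower, where 4.08% and 3.18% of all genes were. The median was 1.53, with 19 above 0, as were 7136 of the 13661 genes tested. *Satb1*, a chromatin organiser of lymphoid cells, was at 0.251, 0 and 0.121 normalised CPM in the MAC-1- and 27.5, 11.3, 20.98 and 0.5996 in the MAC-1low samples (adjusted p = 0.374), so that 1 MAC-1low sample was near the MAC-1- samples. Of 8 *Gimap* genes, 1 was higher by adjusted p, 7 had a log2 fold change above 0, and the median was 1.35, or 1.16 with 1 gene that had no count in MAC-1- samples set to the bound that 3 counts per library allow. No other list's median moved with genes at such bounds. Of 28 myeloid genes 1 (*Spi1*) was higher by adjusted p, 7 were higher and 0 lower at an unadjusted p below 0.05, and the median was 0.76. *Prtn3*, a protease of granulocyte precursors, was at 89.3, 82 and 66.7 normalised CPM in the MAC-1- and 171, 180.2, 129 and 104 in the MAC-1low samples (log2 fold change 0.88 ± 0.37, adjusted p = 0.609). *Lyz2*, lysozyme, was at 346, 575 and 429 normalised CPM in the MAC-1- and 505, 647, 683 and 596 in the MAC-1low samples with overlap (log2 fold change 0.43 ± 0.18, adjusted p = 0.609).

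The text of the study names 7 priming genes, of which Ets was read here as *Ets1*. They too were chosen on these samples, so that their direction is not independent evidence. *Spi1* was the 1 that was higher by adjusted p, 3 were higher at an unadjusted p below 0.05, all 7 had a log2 fold change above 0, and the median was 2.5. *Flt3*, the receptor of lymphoid-primed progenitors, was at 1.76, 2.16 and 4.83 normalised CPM in the MAC-1- and 15.6, 21.5, 23.2 and 5.85 in the MAC-1low samples (log2 fold change 2.5 ± 1.15, adjusted p = 0.673). *Gfi1*, a repressor of myeloid and lymphoid cells, was at 0.565, 0 and 4.95 normalised CPM in the MAC-1- and 22, 14.4, 31.3 and 5.396 in the MAC-1low samples (log2 fold change 3.31 ± 1.75, adjusted p = 0.736). *Cd86*, a costimulatory ligand, was at 0, 0.417 and 0 normalised CPM in the MAC-1- and 17.9, 0, 18.7 and 43.2 in the MAC-1low samples (adjusted p = 0.641), with 1 MAC-1low sample at 0. *Ets1*, *Ikzf1* and *Notch2* had log2 fold changes of 1.42, 0.19 and 0.73, each with overlap. Those of *Ets1* and *Ikzf1* were -0.12 without MAC-1low replicate 2 and -0.14 without MAC-1- replicate 3. Of the 3 niche adhesion genes that the study names from the same samples, again no independent evidence, 0 passed by edgeR's adjusted p (1 at an unadjusted p below 0.05, 0 by DESeq2), and *Alcam*, an adhesion molecule, was at 6.84, 1.06 and 6.94 normalised CPM in the MAC-1- and 20.8, 9.32, 69.6 and 33.2 in the MAC-1low samples (log2 fold change 2.75 ± 1.12, adjusted p = 0.609).

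*Cd74*, the invariant chain of MHC class II, was at 9.73, 13.6 and 51.6 normalised CPM in the MAC-1- and 177, 314, 155 and 251 in the MAC-1low samples (log2 fold change 3.17 ± 0.57, adjusted p = 0.0455). All MAC-1low samples were above all MAC-1- samples, and its adjusted p was 0.00529 to 0.282 with 1 sample left out, above 0.1 without MAC-1low replicate 4, MAC-1- replicate 1 or MAC-1- replicate 2. It was the 1 of 25 antigen presentation genes that was higher by adjusted p, where 4 were higher and 0 lower at an unadjusted p below 0.05 and the median was 0.42. *H2-Aa*, a class II chain, was at 89.1, 48.8 and 85.3 normalised CPM in the MAC-1- and 215, 202, 114 and 135 in the MAC-1low samples (log2 fold change 1.16 ± 0.4, adjusted p = 0.508). *H2-K1*, a class I chain, was at 831, 1033 and 858 normalised CPM in the MAC-1- and 1221, 1233, 1311 and 1095 in the MAC-1low samples (log2 fold change 0.42 ± 0.16, adjusted p = 0.565). Of 44 interferon-stimulated genes, 1 (*Ifitm1*) was higher by adjusted p, and 7 were higher and 2 lower at an unadjusted p below 0.05. Over all genes these shares were 0.161%, 4.08% and 3.18%. Of the 44, 36 had a log2 fold change above 0, as had 7136 of the 13661 genes tested, and the median was 0.68. *Gbp2*, a guanylate-binding protein, was at 17.1, 47.2 and 48.7 normalised CPM in the MAC-1- and 135, 142, 114 and 236 in the MAC-1low samples (log2 fold change 2.06 ± 0.48, adjusted p = 0.149). *Rtp4*, an interferon-induced chaperone, was at 127, 120.3 and 130.1 normalised CPM in the MAC-1- and 250.3, 290.1, 324 and 203 in the MAC-1low samples (log2 fold change 1.09 ± 0.33, adjusted p = 0.377). *Ifitm2*, a close relative of *Ifitm1* in sequence, was at 1672, 1827 and 1741 normalised CPM in the MAC-1- and 1058, 1709.9, 1301 and 1183 in the MAC-1low samples with overlap (log2 fold change -0.41 ± 0.15, adjusted p = 0.544).

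*Mgst1* (chr6:138140316-138156755), a microsomal glutathione transferase, was at 33.6, 37.6 and 44.2 normalised CPM in the MAC-1- and 145, 363, 206 and 207 in the MAC-1low samples (log2 fold change 2.58 ± 0.31, adjusted p = 0.00399). *RP23-329A21.3* (chr5:75833035-75835645, named Gm19590 in M21), the 1 of the 25 called genes that is not protein coding, a lincRNA, was at 149, 201 and 120.3 normalised CPM in the MAC-1- and 427, 484, 446 and 419 in the MAC-1low samples (log2 fold change 1.5 ± 0.21, adjusted p = 0.00848). Both held their call in 16 of 16 other settings. *Ccl4* (chr11:83662584-83664683), a chemokine for monocytes and NK cells, was at 34.3, 32.1 and 28.6 normalised CPM in the MAC-1- and 128, 158, 99.5 and 153 in the MAC-1low samples (log2 fold change 2.09 ± 0.33, adjusted p = 0.0186). *Wfdc17* (chr11:83703991-83706268), a secreted protein of macrophages with the largest positive fold change among the called genes, lies 39307 bases beyond *Ccl4* and was at 7.53, 3.53 and 23.6 normalised CPM in the MAC-1- and 90.8, 184, 139.6 and 239 in the MAC-1low samples (log2 fold change 3.82 ± 0.59, adjusted p = 0.0185). In both the samples stood without overlap. *Wfdc17* had an adjusted p of 0.00448 to 0.115 with 1 sample left out, above 0.1 without MAC-1- replicate 1, and *Ccl4* of 0.0336 to 0.124, above 0.1 without any of the MAC-1- samples.

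The other called higher genes stood apart between the groups in the same way. *Fam134b* (chr15:25843180-25973687), a receptor for the autophagy of endoplasmic reticulum, was at 70.5, 92.2 and 78.9 normalised CPM in the MAC-1- and 263, 297, 316 and 259.6 in the MAC-1low samples (log2 fold change 1.82 ± 0.29, adjusted p = 0.0207). *Pqlc3* (chr12:16988648-17000408) was at 21.2, 18.4 and 17.8 normalised CPM in the MAC-1- and 56.9, 93.6, 66.7 and 101 in the MAC-1low samples (log2 fold change 2.05 ± 0.33, adjusted p = 0.0185). *Cdk17* (chr10:93160875-93267071), a kinase of the cyclin-dependent family, was at 118, 178 and 105 normalised CPM in the MAC-1- and 361, 376, 306 and 321 in the MAC-1low samples (log2 fold change 1.35 ± 0.25, adjusted p = 0.0493). None of these 3 is in a list used here. *Adgrl4* (chr3:151437887-151545086), an adhesion receptor of endothelium, was at 185, 285 and 371 normalised CPM in the MAC-1- and 779, 572, 691 and 909 in the MAC-1low samples (log2 fold change 1.4 ± 0.27, adjusted p = 0.0576). *Lgals1* (chr15:78926725-78930465), galectin-1, was at 49.02, 99.6 and 52.6 normalised CPM in the MAC-1- and 189, 258, 198 and 178 in the MAC-1low samples (log2 fold change 1.62 ± 0.32, adjusted p = 0.0728). *Nrip1* (chr16:76287400-76373827), a corepressor of nuclear receptors, was at 141, 121 and 99.6 normalised CPM in the MAC-1- and 368, 166, 266 and 409 in the MAC-1low samples (log2 fold change 1.33 ± 0.26, adjusted p = 0.0728). *Anxa1* (chr19:20373428-20390944), annexin A1, was at 173, 144 and 128 normalised CPM in the MAC-1- and 267, 509, 351 and 502 in the MAC-1low samples (log2 fold change 1.46 ± 0.3, adjusted p = 0.0943). With 1 sample left out, *Fam134b* was above 0.1 without MAC-1- replicate 1 or 3 (0.045 to 0.149), *Pqlc3* without any MAC-1- sample (0.0228 to 0.12), and *Cdk17* without MAC-1low replicate 1 or 4 or MAC-1- replicate 1 or 3 (0.0579 to 0.232). The adjusted p stayed below 0.1 only without MAC-1low replicate 2 or MAC-1- replicate 3 for *Adgrl4* (0.0738 to 0.312), without MAC-1- replicate 2 for *Lgals1* (0.0579 to 0.352), without MAC-1low replicate 2 for *Nrip1* (0.012 to 0.334) and without MAC-1low replicate 1 for *Anxa1* (0.0811 to 0.386).

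Leaving out each sample in turn kept 17, 25, 19 and 16 of the 38 genes with an adjusted p below 0.1 without MAC-1low replicates 1 to 4, and 8, 13 and 14 without MAC-1- replicates 1 to 3. *Pf4*, *Mgst1*, *Rap1b*, *RP23-329A21.3*, *Ifitm1*, *Tmsb4x* and *Cox8a* stayed below 0.1 in all 7 cases. *Pf4*, *Mgst1*, *Rap1b*, *RP23-329A21.3* and *Tmsb4x* also did so in each of the 9 other settings, which included fits with a replicate block. Of the 38, DESeq2 kept 38, limma-voom 37 and a fit of the 7 samples alone 12. A replicate block kept 8, and a replicate block by consecutive label numbers kept 11. *Plek*, *Hlf*, *Mecom*, *Spi1*, *Cd74* and *Gimap6* were among the genes that lost the call with the replicate block.

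The nuclear genes of oxidative phosphorylation *Cox8a*, *Cox6a1*, *Atp5g1* and *Uqcrq* were lower in MAC-1low HSCs by small amounts. Of 76 such genes tested, 4 were lower by adjusted p (0.117% of all genes) and 0 higher (0.161%). In 72 the log2 fold change was below 0, where 6525 of the 13661 genes tested were at or below 0. *Cox8a*, a subunit of cytochrome c oxidase, was at 1297, 1379.9 and 1174 normalised CPM in the MAC-1- and 704, 872, 728 and 715 in the MAC-1low samples (log2 fold change -0.77 ± 0.11, adjusted p = 0.011). *Cox6a1*, of the same complex, was at 869, 938 and 820.4 normalised CPM in the MAC-1- and 439.5, 558, 489 and 595 in the MAC-1low samples (log2 fold change -0.75 ± 0.14, adjusted p = 0.0529). *Atp5g1*, of the ring of ATP synthase, was at 1258, 1197 and 1021 normalised CPM in the MAC-1- and 627, 834, 545 and 607 in the MAC-1low samples (log2 fold change -0.83 ± 0.17, adjusted p = 0.0977). *Uqcrq*, of complex III, was at 629.6, 719 and 668 normalised CPM in the MAC-1- and 379, 501, 419 and 416 in the MAC-1low samples (log2 fold change -0.65 ± 0.14, adjusted p = 0.0977). Each of these 4 stood without overlap, at a fold below the fold threshold. At an unadjusted p below 0.05, 37 of the 76 were lower and 0 higher, DESeq2 called 16 lower and 0 higher, 35 stood without overlap with MAC-1low below (5.53% of all genes), and the median was -0.46, where the class of genes with the highest levels had a median of -0.07. With 1 sample left out, the adjusted p were 0.0796 to 0.312 for *Cox6a1*, below 0.1 only without MAC-1low replicate 4, 0.0562 to 0.428 for *Atp5g1* and 0.0967 to 0.413 for *Uqcrq*, both below 0.1 only without MAC-1low replicate 2. Many of these short genes have processed pseudogenes of nearly the same sequence, which can take part of the reads.

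Outside that list, *Slc25a5*, the carrier that exchanges ADP and ATP across the inner mitochondrial membrane, was at 2737, 2386 and 2536 normalised CPM in the MAC-1- and 1519, 1434, 1415 and 1522 in the MAC-1low samples (log2 fold change -0.79 ± 0.13, adjusted p = 0.0185). *Atpif1*, the inhibitor of ATP synthase, was at 2534, 3532 and 2852 normalised CPM in the MAC-1- and 1555, 2082, 1783 and 1948 in the MAC-1low samples (log2 fold change -0.69 ± 0.13, adjusted p = 0.0495). *Uqcc2*, an assembly factor of complex III, was at 491, 598 and 439 normalised CPM in the MAC-1- and 235, 344, 281 and 309.9 in the MAC-1low samples (log2 fold change -0.8 ± 0.17, adjusted p = 0.094). All 3 stood without overlap. *Tmsb4x*, thymosin beta 4, which holds actin monomers, was at 8797, 9966 and 7789 normalised CPM in the MAC-1- and 4324, 4983, 4092 and 4563 in the MAC-1low samples (log2 fold change -0.98 ± 0.14, adjusted p = 0.00848). *S100a1*, a calcium-binding protein, was at 682, 902 and 814 normalised CPM in the MAC-1- and 320.1, 467, 412 and 438 in the MAC-1low samples (log2 fold change -0.96 ± 0.18, adjusted p = 0.0529). *Cenpw*, of the centromere, was at 573, 477 and 433 normalised CPM in the MAC-1- and 215, 315, 249 and 215 in the MAC-1low samples (log2 fold change -0.99 ± 0.18, adjusted p = 0.0493). *2010107E04Rik* was also lower (log2 fold change -0.93 ± 0.19, adjusted p = 0.0732). *Zfp36l2*, an RNA-binding protein, was the 1 gene higher by adjusted p but within the fold threshold, at 283, 338 and 343 normalised CPM in the MAC-1- and 553, 476, 513 and 580.2 in the MAC-1low samples (log2 fold change 0.72 ± 0.14, adjusted p = 0.0722). With 1 sample left out, *Slc25a5* had an adjusted p of 0.045 to 0.115, above 0.1 without MAC-1- replicate 1, and *Uqcc2* and *2010107E04Rik* were above 0.1 in all 7 cases. The adjusted p stayed below 0.1 only without MAC-1low replicate 2 for *Cenpw*, *S100a1* and *Zfp36l2*, and without MAC-1low replicate 2 or MAC-1- replicate 1 for *Atpif1*.

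Genes encoded by the mitochondrial genome, which serve the same complexes, were not called. Of 12 tested, 0 passed by edgeR's adjusted p (1 higher and 0 lower at an unadjusted p below 0.05, 0 by DESeq2), and their median was 0.04. The share of all counts on this genome was 6.81% to 9.15% in MAC-1- and 6.56% to 9.55% in MAC-1low samples. *mt-Co3*, of cytochrome c oxidase, was at 38.9, 38.1 and 21.3 normalised CPM in the MAC-1- and 1939, 16.4, 23.5 and 29.01 in the MAC-1low samples, so that a single MAC-1low sample set its log2 fold change of 3.94, which was -0.51 without that sample. *mt-Cytb*, of complex III, was at 37336, 30278 and 25840.5 normalised CPM in the MAC-1- and 32005, 20473, 22209 and 29711 in the MAC-1low samples (log2 fold change -0.26 ± 0.24, adjusted p = 1).

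The lists of MYC targets, DNA replication, G2 and mitosis, and G1 cyclins with their kinases had medians below 0, and none of their members passed edgeR's adjusted threshold. Of 52 MYC targets, of ribosome biogenesis and other processes, 0 passed by edgeR's adjusted p. At an unadjusted p below 0.05, 5 were lower and 0 higher, where 3.18% and 4.08% of all genes were. DESeq2 called 2 lower, 43 had a log2 fold change below 0, and the median was -0.43. The ribosome biogenesis genes *Nip7* and *Nhp2* did not pass (edgeR adjusted p = 0.565 and 0.595). *Hspe1* and *Ldha* are not genes of ribosome biogenesis. *Hspe1*, a mitochondrial chaperone, was at 1056, 984 and 844 normalised CPM in the MAC-1- and 704, 495, 443 and 589 in the MAC-1low samples (log2 fold change -0.79 ± 0.21, adjusted p = 0.263). *Ldha*, lactate dehydrogenase, was at 844, 619.7 and 725 normalised CPM in the MAC-1- and 358, 475, 463 and 322 in the MAC-1low samples (log2 fold change -0.85 ± 0.23, adjusted p = 0.287). *Myc* itself was at 54.4, 87.9 and 91.96 normalised CPM in the MAC-1- and 79.7, 107, 80.4 and 96.5 in the MAC-1low samples (log2 fold change 0.22 ± 0.29, adjusted p = 1). Of 55 genes of DNA replication, 0 passed by edgeR's adjusted p or by DESeq2, 6 were lower and 0 higher at an unadjusted p below 0.05, 12 stood without overlap with MAC-1low below (5.53% of all genes), and the median was -0.55. *Rrm2*, of ribonucleotide reductase, was at 121, 137 and 126 normalised CPM in the MAC-1- and 69.6, 78.6, 73.02 and 39.7 in the MAC-1low samples (log2 fold change -0.97 ± 0.35, adjusted p = 0.553). *Mcm6*, of the replicative helicase, was at 181, 311 and 179 normalised CPM in the MAC-1- and 119, 113, 161 and 111 in the MAC-1low samples (log2 fold change -0.83 ± 0.31, adjusted p = 0.576). *Gins2*, of the same machinery, was at 88.5, 77.7 and 97.1 normalised CPM in the MAC-1- and 26.8, 17.6, 50.4 and 52.7 in the MAC-1low samples (log2 fold change -1.25 ± 0.46, adjusted p = 0.562). Of 66 genes of G2 and mitosis, 0 passed by edgeR and 1 was higher by DESeq2, with a median of -0.24. At an unadjusted p below 0.05, 2 were lower and 1 higher, where 3.18% and 4.08% of all genes were. *Mki67*, the proliferation marker, was at 346, 251 and 145 normalised CPM in the MAC-1- and 299, 189.8, 232 and 249 in the MAC-1low samples (log2 fold change -0.03 ± 0.39, adjusted p = 1). *Kif23*, a kinesin of cell division, was in the higher direction without passing (edgeR adjusted p = 0.331). Its log2 fold change was 1.58 to 2.44 with 1 sample left out. Of the 66 genes, 22 were above 0 and 44 were not. For 15 G1 cyclins and their kinases the median was -0.4 with 0 calls (1 lower at an unadjusted p below 0.05, 0 by DESeq2), and *Cdk6*, which drives HSCs out of quiescence, was at 288, 288 and 228 normalised CPM in the MAC-1- and 179, 107, 177 and 182 in the MAC-1low samples (log2 fold change -0.73 ± 0.3, adjusted p = 0.609).

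Of the remaining lists, the immediate-early genes had a median of 0.36 over 25 genes with 0 calls by edgeR and 1 in each direction by DESeq2. At an unadjusted p below 0.05, 5 were higher and 1 lower, where 4.08% and 3.18% of all genes were. *Fos* was at 858, 1131 and 855 normalised CPM in the MAC-1- and 1489, 1518, 1506 and 1650.2 in the MAC-1low samples (log2 fold change 0.7 ± 0.15, adjusted p = 0.107), without overlap. Integrins and adhesion genes had a median of 0.12 over 36 genes with 0 calls by edgeR (3 higher and 1 lower at an unadjusted p below 0.05, 1 lower by DESeq2). The p53 targets had a median of 0.24 over 23 genes and the MYC, MAX and MXD genes one of 0.22 over 11, both with 0 calls by edgeR, at an unadjusted p below 0.05 and by DESeq2.

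**Figure D3:**
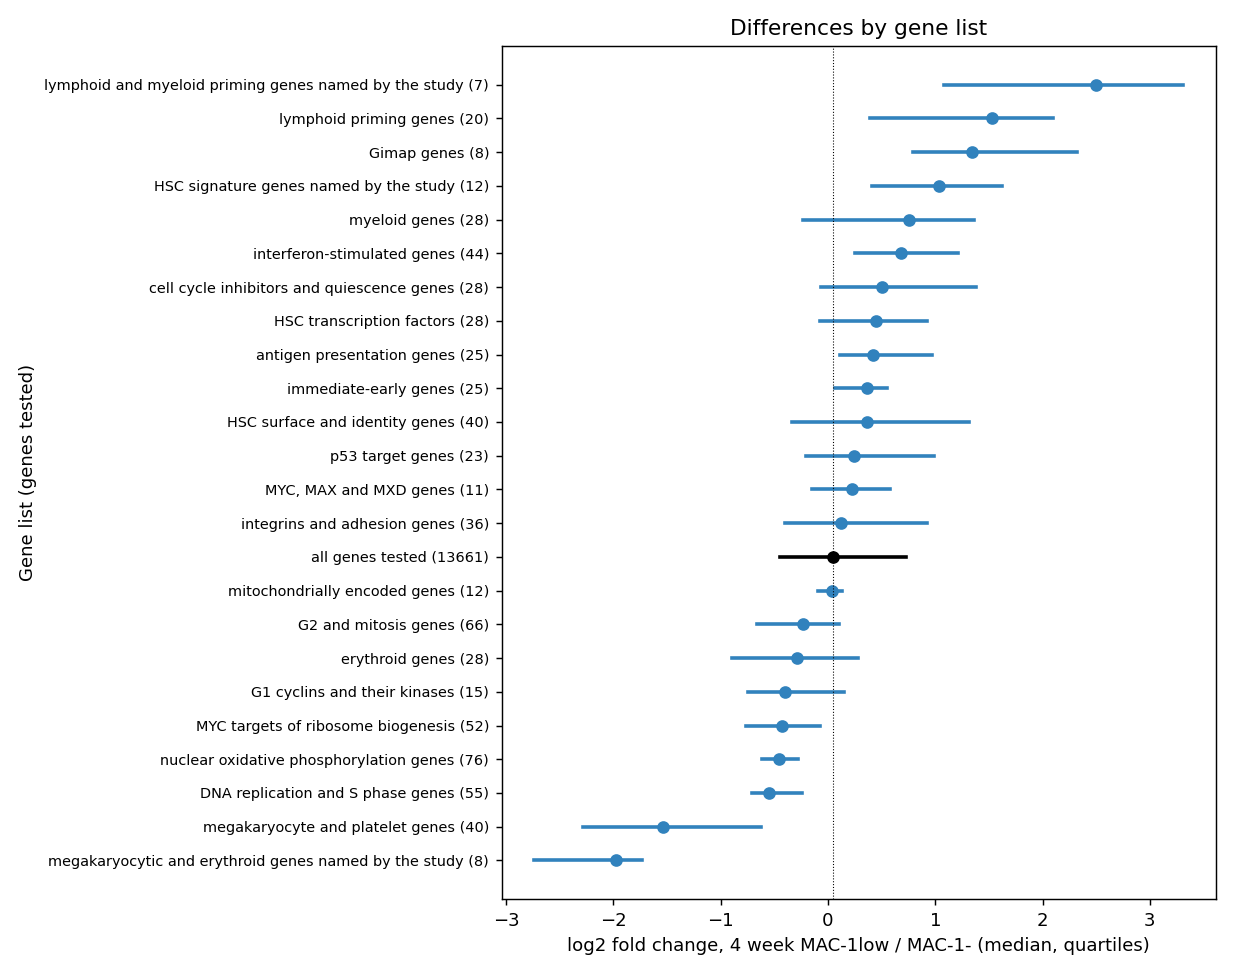
Median (point) and 25th to 75th percentile (bar) of the log2 fold change of 4 week MAC-1low over MAC-1- HSCs for each gene list with at least 5 genes tested, with all genes tested in black and their median as a dotted line. The megakaryocyte and platelet genes lie lowest among the lists not named by the study (median -1.54) and the lymphoid priming genes highest (1.53); the lists share genes and were chosen with results of these data known.

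Genes with counts in MAC-1low and almost none in MAC-1- HSCs stood just outside the threshold. *Slc16a12*, a transporter of the monocarboxylate family, was at 0, 0 and 0.0604 normalised CPM in the MAC-1- and 70.3, 6.98, 18.1 and 17.01 in the MAC-1low samples (adjusted p = 0.101). *Fam184a* had 0 counts in all MAC-1- samples and 8.89, 1.29, 0.257 and 26.5 normalised CPM in the MAC-1low samples (adjusted p = 0.11). A fitted fold of such genes depends on the prior count. Inside the threshold, the called genes with the largest adjusted p were *Anxa1* and *Stxbp4* (both 0.0943), and among those just outside it were *Cd24a* (0.101), *Slc16a12* and *Ly6a* (0.101). *Tsc22d1* was at 232, 216 and 256 normalised CPM in the MAC-1- and 468, 379, 336 and 409.6 in the MAC-1low samples (log2 fold change 0.76 ± 0.17, adjusted p = 0.114). *Phip* was at 96.8, 149 and 127 normalised CPM in the MAC-1- and 338, 219.8, 257 and 381 in the MAC-1low samples (log2 fold change 1.26 ± 0.29, adjusted p = 0.133). *Ramp1*, a receptor partner for the neuropeptide CGRP, was at 255, 357 and 324 normalised CPM in the MAC-1- and 413, 784, 591 and 631 in the MAC-1low samples (log2 fold change 0.95 ± 0.22, adjusted p = 0.146). In these last 3 genes the groups stood without overlap.

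Markers of other cells were read as lists. The summed level of 15 neutrophil markers was 30.5 to 75.6 normalised CPM in MAC-1- and 39.5 to 165 in MAC-1low samples, with *Lcn2* and *Mmp8* at 0 in all 7, 8 genes tested and 0 passing (1 higher and 1 lower at an unadjusted p below 0.05 and 1 in each direction by DESeq2). That of 15 monocyte and macrophage markers was 352 to 596 and 661 to 756, without overlap, with *C1qa*, *Ccr2* and *Cx3cr1* at 0 in all 7 and 8 of the 15 at or under the floor of 3 counts in every sample. Most of this sum was *Lyz2*. *Ctss*, a lysosomal protease, was at 0, 5.27 and 0.242 normalised CPM in the MAC-1- and 139, 12.7, 41.96 and 68.5 in the MAC-1low samples. *Cd68*, a lysosomal membrane protein of macrophages, was at 0.188, 8.45 and 0.906 normalised CPM in the MAC-1- and 17.9, 22.2, 32.1 and 36.8 in the MAC-1low samples. The groups did not overlap in either, and 0 of 5 tested passed (2 higher at an unadjusted p below 0.05, 1 higher by DESeq2). Beside the calls of *Spi1*, *Ikzf2*, *Ltb* and *Gimap6* in the same samples, the part of this difference in them was not tested. The 12 genes of CD48+ progenitors summed to 247 to 252 in MAC-1- and 389 to 455 in MAC-1low samples, also without overlap. Of 9 tested 0 passed, while 5 were higher at an unadjusted p below 0.05 and 4 by DESeq2, and *Ctsg* and *Dntt* were at 0 in all 7 samples. *Satb1* and *Flt3* stand in this list and among the priming genes, and the part of CD48+ progenitors in the priming genes was not tested. Summed NK and T cell markers were 323 to 643 against 163 to 373, with 9 of 15 at 0 in all 7 samples, 3 tested and 0 passing (1 higher at an unadjusted p below 0.05 and by DESeq2), and B cell markers 10.3 to 35.7 against 32.5 to 56.02, with 5 of 12 at 0 and 3 tested, none of which passed either threshold or DESeq2. Erythroblast markers summed to 49.1 to 123 against 89.03 to 122, mast cell, basophil and eosinophil markers to 37.6 to 85.6 against 26.03 to 120.0 and those of stroma and endothelium to 9.77 to 13.7 against 6.49 to 16.8, each with overlap.

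In all 25 called genes both SS means lay on the MAC-1low side of the 4 week MAC-1- mean. The MAC-1+ mean lay beyond the MAC-1low mean in 21 of them and between the MAC-1low and MAC-1- means in 4. All 25 were chosen on the 4 week MAC-1low and MAC-1- samples, so that the side of the other means is partly set by that choice. The share of all genes with such an order was not counted. The levels in the 5 populations are given for 3 of these genes. *Pf4* was at 4957 ± 1310.0 (SD, n = 3) in 4 week MAC-1- HSCs, 755 ± 229 (n = 3) in SS MAC-1-, 545 ± 226 (n = 4) in 4 week MAC-1low, 378 ± 150.1 (n = 3) in SS MAC-1low and 129.8 ± 26.04 (n = 3) in 4 week MAC-1+ HSCs. Neighbours among the middle 3 of these means differed by less than 1 SD of the more variable group. *Hlf* was at 66.97 ± 17.5 in 4 week MAC-1-, 329.6 ± 127 in SS MAC-1-, 355 ± 161 in SS MAC-1low, 361 ± 153 in 4 week MAC-1low and 668 ± 215 in 4 week MAC-1+ HSCs, again with the middle 3 within their SD. *Mgst1* was at 38.5 ± 5.34 in 4 week MAC-1-, 133 ± 17.9 in SS MAC-1low, 171 ± 51.3 in SS MAC-1-, 230.3 ± 92.9 in 4 week MAC-1low and 288 ± 35.9 in 4 week MAC-1+ HSCs, where all neighbours but the lowest were within 1 SD of each other. The summed neutrophil markers were 193 to 7090.5 normalised CPM in the MAC-1+ samples against 39.5 to 165 in MAC-1low, and their part in the MAC-1+ values was not tested. MAC-1+ against MAC-1- shares the MAC-1- samples with the comparison above. Its own log2 fold changes were -5.25 for *Pf4*, -4.7 for *Plek*, 3.32 for *Hlf*, 2.19 for *Mecom*, 4.33 for *Cd74* and -1.24 for *Cox8a*, beside -3.19, -3.63, 2.43, 1.49, 3.17 and -0.77 for MAC-1low against MAC-1-. It called 338 genes (2.47%), with 13.4% at an unadjusted p below 0.05. Between MAC-1+ and MAC-1low HSCs edgeR called 0 genes, with 936 at an unadjusted p below 0.05 (6.85%), 106 higher (0.743%) and 263 lower (1.84%) by DESeq2 and 4 higher (0.0293%) and 1 lower (0.00732%) by limma-voom.

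**Figure D4:**
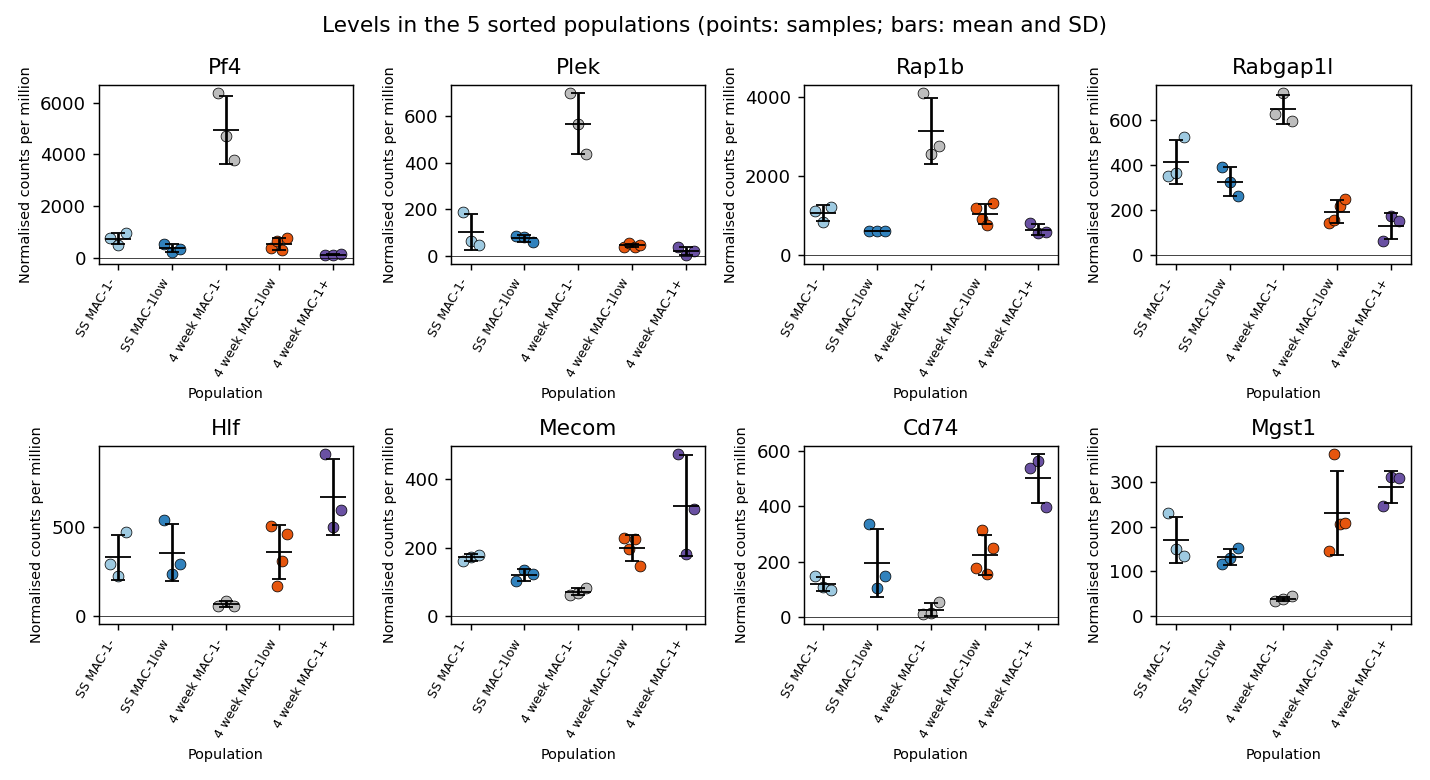
Normalised CPM (linear axes from 0) of 8 called genes in SS MAC-1-, SS MAC-1low, 4 week MAC-1-, 4 week MAC-1low and 4 week MAC-1+ HSCs, each point a sample (n = 3, 3, 3, 4 and 3) and the bars mean and SD. The 4 week MAC-1- mean is the highest of the 5 for *Pf4*, *Plek*, *Rap1b* and *Rabgap1l* and the lowest for *Hlf*, *Mecom*, *Cd74* and *Mgst1*. These genes were chosen on the 4 week MAC-1- and MAC-1low values.

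The same contrast in SS HSCs, on other samples, gave 1 higher and 1 lower gene (0.0146% for both directions), 1278 genes at an unadjusted p below 0.05 (9.36%), 562 higher (4.07%) and 320 lower (2.32%) genes by DESeq2 and 0 by limma-voom. Of the 25 genes called at 4 weeks, 14 had the same sign in SS HSCs, and the share of all genes with the same sign was not counted. In 5 of the 25 the unadjusted p was below 0.05 in SS HSCs, beside 9.36% of all genes. Log2 fold changes of SS MAC-1low over SS MAC-1- were -1.0 for *Pf4*, -0.4 for *Plek*, -0.8 for *Rap1b*, -0.34 for *Rabgap1l*, 0.11 for *Hlf*, -0.51 for *Mecom*, 0.22 for *Spi1* and 0.74 for *Cd74*. Over the megakaryocyte and platelet genes the SS median was -0.34, over the lymphoid priming genes 0.59 and over the oxidative phosphorylation genes -0.15.

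The difference between both contrasts, tested as an interaction, passed both thresholds in 8 genes (0.0586%), 7 of them with the larger value at 4 weeks, while 8.73% of genes had an unadjusted p below 0.05. These 7 were *Mgst1* (4 week minus SS log2 fold change 2.95 ± 0.43, adjusted p = 0.0583), *RP23-329A21.3* (1.87 ± 0.29, adjusted p = 0.0583), *Ifitm1* (1.48 ± 0.24, adjusted p = 0.0583), *Fos* (1.4 ± 0.22, adjusted p = 0.0583), *Ccl4* (2.58 ± 0.47, adjusted p = 0.0984), *Cdk17* (1.94 ± 0.35, adjusted p = 0.0984) and *Zfp36l2* (1.19 ± 0.21, adjusted p = 0.092). In all 7 the SS log2 fold change was below 0, between -0.69 for *Fos* and -0.33 for *Ifitm1*. *Ska1*, of the mitotic spindle, had the larger value in SS HSCs (26.9 normalised CPM in SS MAC-1low and 0.0684 in SS MAC-1-, means of 3) and was at 14.8, 33.7 and 49.1 normalised CPM in the MAC-1- and 24.7, 27.97, 46.6 and 63.6 in the MAC-1low samples at 4 weeks, where it did not pass (adjusted p = 1). DESeq2 called 2.87% with the larger value at 4 weeks and 2.23% with the smaller, and limma-voom 0.0805% and 0.0293%. Leaving out 1 sample gave between 0 and 17 such genes. It gave 0 without 4 week MAC-1low replicate 4, 4 week MAC-1- replicate 1 or SS MAC-1low replicate 2 or 3, 1 without 4 week MAC-1low replicate 1 or 4 week MAC-1- replicate 3, 5 without 4 week MAC-1low replicate 3 or 4 week MAC-1- replicate 2, and 17 and 13 without SS MAC-1- replicates 1 and 2. For the other called genes the difference between 4 weeks and SS did not pass this test.

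**Figure D5:**
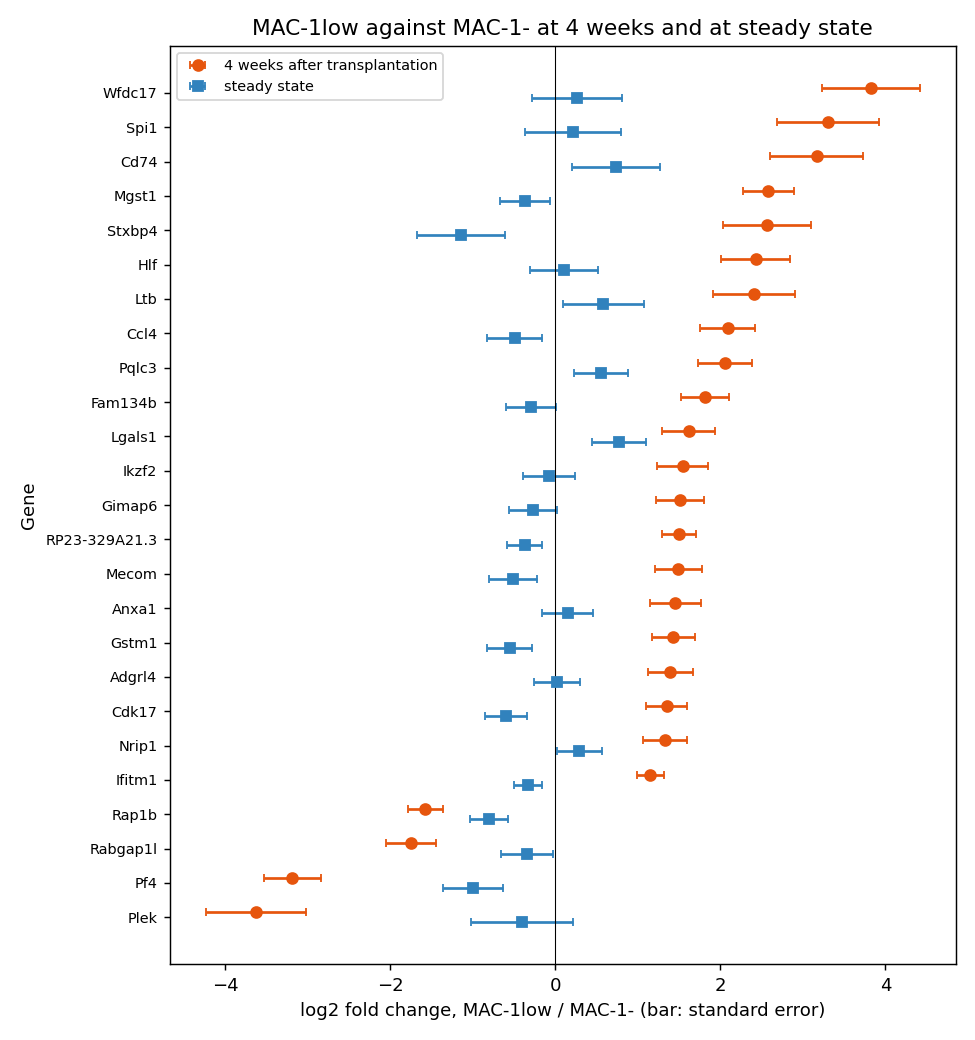
Log2 fold change of MAC-1low over MAC-1- HSCs with its standard error for the 25 genes called at 4 weeks, at 4 weeks (orange circles, n = 4 against 3) and at SS (blue squares, n = 3 against 3). At 4 weeks the values run from -3.63 (*Plek*) to 3.82 (*Wfdc17*), by the choice of the genes, and at SS from -1.14 (*Stxbp4*) to 0.78 (*Lgals1*).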

How the data were processed

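HSC samples of 5 populations were sequenced, and 7 of the 16 (4 week MAC-1low and MAC-1-) entered the comparison, grouped by their labels. The authors deposited read counts per gene for 46078 Ensembl identifiers, not normalised, made with nf-core RNA-seq and STAR. Counter, build and gene models were not given in the sources used here, and DESeq2 is named in the submitters' processing notes. Strand was not marked, so overlapping and antisense genes cannot be told apart, and PCR copies count as reads. Totals of 13781278 to 28580658 counts per sample set the precision, and floors cover counting error only. GENCODE M21 held 45229 (98.2%) of these identifiers. RefSeq promoters were matched by symbol.

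In R 4.3.3, edgeR 4.0.16 (TMM, default filter on low counts, robust quasi-likelihood) fitted 1 mean per population to all 16 samples, which gave 13661 genes tested, 11 residual degrees of freedom and a biological coefficient of variation of 1.13. Called genes had an adjusted p below 0.1 and a log2 fold change beyond 1, and members of lists and single genes an adjusted p below 0.1. Genes named are both MAC-1 subunits, all called genes, the members of each list with an adjusted p below 0.1 or among its 4 smallest p, the genes the study names, the 10 per direction with the smallest p outside the thresholds, the interaction genes and, chosen after their values were seen, *Slamf1*, *Cd48*, *Mki67*, *Myc* and markers at 0; not all of these are described, and some genes are not reported here. Members and gene lists were chosen with earlier results of these data known. DESeq2 1.42.0, limma 3.58.1 (voom), DESeq2 size factors, other filters and thresholds, the compared groups alone, detected genes as a covariate, blocks and leaving out each sample were tried. Scripts were tested on simulated data. Figures used Python 3.11.15 and matplotlib 3.10.9.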

Additional observations from a re-analysis of the deposited data

Results flagged for a closer look

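Within the 4 MAC-1low samples, 1 sample stood far from the others in 11 of 125 genes examined (8.8%). The cut used flags about 1 in 20 groups of normally distributed values. Unlogged CPM of genes chosen in part on these samples need not follow that rate, so no excess is read from this share. *mt-Co3* was at 1939 normalised CPM in replicate 1 against 16.4 to 29.01 in the other 3. *Cox8a* was at 872 normalised CPM in replicate 2 against 704 to 728 in the other 3, *Ltb* at 141 normalised CPM in replicate 2 against 81.8 to 86.95 in the other 3, and *Cdk6* at 107 normalised CPM in replicate 2 against 177 to 182 in the other 3. *Lyl1* was at 40.3 normalised CPM in replicate 3 against 26.2 to 28.1 in the other 3, *Ccng2* at 161 normalised CPM in replicate 4 against 105 to 112 in the other 3, and *Mcm6* at 161 normalised CPM in replicate 3 against 111 to 119 in the other 3. *Mfsd2b* was at 22.5 normalised CPM in replicate 2 against 0.4904 to 3.93 in the other 3, *Perp*, a p53 target, at 11.8 normalised CPM in replicate 4 and 0 in the other 3, *Ccnd2*, cyclin D2, at 350.4 normalised CPM in replicate 3 against 314 to 319 in the other 3, and *Ets1* at 20.7 normalised CPM in replicate 2 against 1.499 to 2.88 in the other 3. The samples that stood apart were replicate 1 once, replicate 2 in 5 genes, replicate 3 in 3 and replicate 4 in 2.

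The MAC-1low against MAC-1- difference differed between 4 weeks and SS by the interaction test in 8 genes. The 4 week minus SS log2 fold change was 2.95 for *Mgst1*, 1.87 for *RP23-329A21.3*, 1.48 for *Ifitm1*, 2.58 for *Ccl4*, 1.94 for *Cdk17*, 1.19 for *Zfp36l2*, 1.4 for *Fos* and -8.09 for *Ska1*, the last a fitted value that depends on the prior count because SS MAC-1- samples had almost no counts. The adjusted p lay between 0.0583 and 0.0984 (edgeR).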

How the results depend on the processing

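None of the 38 genes with an adjusted p below 0.1 turned its direction under any alternative, while many lost the call. The 21 higher and 4 lower genes became 11 higher at an adjusted p below 0.05, 372 and 82 with DESeq2, 127 and 84 with limma-voom, 39 and 8 without a filter on low counts, and 10 higher with only the groups compared; without the fold threshold 16 were lower. Leaving out 1 sample gave 6 to 13 higher and 2 to 6 lower genes. The interaction's 8 genes became 0 at 0.05, 727 with DESeq2, 15 with limma-voom, 31 without the filter, 4 with detected genes as a covariate, and 0 to 17 with 1 sample left out. Same-numbered MAC-1low and MAC-1- samples had correlations of 0.040, 0.0033 and -0.0011 between their deviations from the group means, and replicate 1 alone correlated best with its own number. Correlations this near 0 cannot decide whether the samples were paired. With the replicate block 4 genes were higher, 2 lower and 0 in the interaction; a replicate block by consecutive label numbers, which the labels do not call a pairing, gave 7 higher, 3 lower and 0 (correlations 0.040, 0.023 and 0.020, for each MAC-1low sample with a partner the best of 3). The cause of these changes was not tested. Uncalled genes changed sign: *Mxd4* to -0.23 with the consecutive block, *Ska1* to -0.22 and *Glipr1l1* to -0.0090 with the covariate, and these ranged, with 1 sample left out, as *mt-Co3* -0.51 to 4.35, *Ets1* -0.12 to 2.15, *Itgam* -0.18 to 7.83, *Ikzf1* -0.14 to 0.78, *Uba7* -0.24 to 0.032, *Ska1* -0.023 to 0.75 and *Glipr1l1* -0.0042 to 0.47. DESeq2's size factors moved the median of all genes from 0.05 to 0.09 and no list's median across 0. Genes with few counts in 4 against 3 samples remain beyond what this depth resolves.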
